A study of Mus musculus with 2 samples.

Results

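The Pax, Lhx, Nkx, Dlx and Six-family genes are groups of transcription factors that set the identity of tissues in the embryo. Mouse coding genes were taken by symbol: the family name and a number for Pax, Lhx, Dlx and Six-family genes, and a pair of numbers joined by a hyphen for Nkx genes. This gave 43 genes of 21887 coding genes in the RefSeq annotation of GRCm38.p6 (mm10): 9 Pax, 8 Lhx, 14 Nkx, 6 Dlx and 6 Six-family genes. Accessible chromatin of AB22, a mouse mesothelioma cell line, had been mapped by ATAC-seq, where the Tn5 transposase inserts adapters into open DNA. There was 1 library from cells with a control hairpin, shCTRL, and 1 from cells with a hairpin against Hmgb1, shHMGB1. The product of Hmgb1 is an abundant, DNA-bending chromatin protein. Both lines were made from AB22 with pTRIPZ lentivirus at a multiplicity of infection of 20, selected with puromycin at 4 µg/mL and induced with doxycycline at 1 µM for 7 to 10 days. Both were grown at 37 °C with oxygen labelled as 5%. The labels describe no separate clones and give no radiation dose for these libraries, so each group is 1 library of 1 transduced line, and no difference between the libraries could be compared with a spread between replicates. No p-value is given.

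Pax proteins bind DNA through a paired domain, and in several members also through a homeodomain. Lhx proteins carry LIM domains that bind cofactors next to a homeodomain. Nkx and Dlx proteins are homeodomain factors, and Six-family proteins pair a homeodomain with a domain that binds the Eya coactivators. Outside the tissues that use them, many such genes are held silent by Polycomb complexes, often at promoters rich in CpG. Polycomb marks, transcripts and DNA methylation were not analysed here.

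A peak list gives places where fragments pile up above the level expected in that library, with the position of each local maximum, the summit. The pileup is the number of fragments over the summit. It was recovered from the deposited fold and is given with a 95% Poisson interval that covers counting error only, since the fragments carry no molecular identifiers and may be copies of 1 molecule. The lists held 104336 peaks in shCTRL and 92282 in shHMGB1. The expected pileup was 2.79 and 1.68 fragments, and the lowest pileup listed was 10 and 7, so the lists reach down to different pileups. A gene was counted as open at an end when a summit lay within 1 kb of either annotated end. Hmgb1 silencing cannot be checked from these lists. Of 12 mesothelial marker genes, 4 were open at an end in shCTRL and 3 in shHMGB1 (33.3% and 25%, beside 57.8% and 53.7% of all coding genes). Msln (22 and 12 fragments) and Pdpn (16 and 13) were open in both. Calb2 (13) and Wt1 (12) were open in shCTRL alone, and Lrrn4 (9) in shHMGB1 alone. The other 7, among them Upk3b, Krt8, Krt18 and Krt19, had no end summit in either library. Of 6 neuronal markers 3 and 2 were open (50% and 33.3%), of 4 epithelial markers 2 and 0 (50% and 0%), and of 4 leukocyte markers 3 and 1 (75% and 25%).

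Pax9, Six4, Lhx6 and Dlx2 had some of the highest summits of these genes at their starts or ends. The sequences below are the 250 bases before a listed start of each, 5′ to 3′ on the strand of the gene, from RefSeq (GRCm38.p6). Capitals mark matches, on either strand, to GGGCGG (the GC box) and CCAAT (the CCAAT box). TATAAA (the TATA box) and TAATTA (a core of homeodomain sites) were searched too and do not occur in these windows. Matches of different motifs may share bases. The Pax9 window is chr12:56695221-56695470 on the plus strand, that of Six4 chr12:73113426-73113675 on the minus strand, that of Lhx6 chr2:36105409-36105658 on the minus strand and that of Dlx2 chr2:71546755-71547004 on the minus strand.
Pax9: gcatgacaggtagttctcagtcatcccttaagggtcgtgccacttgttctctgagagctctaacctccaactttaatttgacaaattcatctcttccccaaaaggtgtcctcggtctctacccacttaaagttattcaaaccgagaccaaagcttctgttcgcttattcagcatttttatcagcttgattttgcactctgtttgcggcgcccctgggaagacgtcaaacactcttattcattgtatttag
Six4: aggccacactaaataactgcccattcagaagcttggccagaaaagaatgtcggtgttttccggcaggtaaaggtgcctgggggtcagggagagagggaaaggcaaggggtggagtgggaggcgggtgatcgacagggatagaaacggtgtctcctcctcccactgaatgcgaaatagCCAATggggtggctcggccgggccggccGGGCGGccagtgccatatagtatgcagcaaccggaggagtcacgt
Lhx6: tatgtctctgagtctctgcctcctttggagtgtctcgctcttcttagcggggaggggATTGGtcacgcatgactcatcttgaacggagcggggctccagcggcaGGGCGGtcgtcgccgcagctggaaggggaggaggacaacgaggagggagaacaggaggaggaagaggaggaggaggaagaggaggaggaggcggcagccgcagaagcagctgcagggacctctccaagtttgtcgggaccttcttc
Dlx2: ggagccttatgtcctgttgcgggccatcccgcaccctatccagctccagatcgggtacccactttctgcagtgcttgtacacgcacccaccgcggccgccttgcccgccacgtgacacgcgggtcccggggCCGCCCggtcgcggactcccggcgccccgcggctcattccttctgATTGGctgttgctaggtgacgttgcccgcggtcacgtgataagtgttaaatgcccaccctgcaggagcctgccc

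The other windows are shown for contrast, because no peak covered them in shHMGB1. Nkx1-1 (chr5:33434091-33434340, minus strand) had a weak summit beside its start in shCTRL alone. Six6 (chr12:72939632-72939881, plus strand) and Nkx2-1 (chr12:56536909-56537158, minus strand) had no peak within 20 kb in either library.
Nkx1-1: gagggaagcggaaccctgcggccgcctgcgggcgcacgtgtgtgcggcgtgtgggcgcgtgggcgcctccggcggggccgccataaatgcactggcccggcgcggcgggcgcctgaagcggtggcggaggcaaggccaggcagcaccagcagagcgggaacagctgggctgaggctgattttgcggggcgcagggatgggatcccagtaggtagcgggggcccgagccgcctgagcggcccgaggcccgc
Six6: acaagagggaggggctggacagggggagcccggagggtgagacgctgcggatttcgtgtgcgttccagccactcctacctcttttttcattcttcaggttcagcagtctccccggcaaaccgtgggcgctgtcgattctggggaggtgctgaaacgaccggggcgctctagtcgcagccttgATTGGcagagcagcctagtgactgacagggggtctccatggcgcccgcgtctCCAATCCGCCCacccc
Nkx2-1: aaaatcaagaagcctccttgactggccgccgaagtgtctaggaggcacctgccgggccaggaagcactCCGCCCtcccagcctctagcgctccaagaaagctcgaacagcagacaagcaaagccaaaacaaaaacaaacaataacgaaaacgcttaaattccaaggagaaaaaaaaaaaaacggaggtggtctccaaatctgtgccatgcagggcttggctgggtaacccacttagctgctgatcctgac

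The gene ends carried open chromatin about as often as those of other genes in shCTRL, and at low pileups. In shCTRL 27 of the 43 genes had an end summit, which is 62.8% (95% Clopper-Pearson interval 46.7 to 77.0), beside 57.8% of all coding genes. In shHMGB1 18 genes did, which is 41.9% (27.0 to 57.9), beside 53.7% of all. All 18 were also open in shCTRL, where the background for both libraries is 52% of coding genes. A further 9 were open in shCTRL alone (20.9%, interval 10.0 to 36.0, beside 5.79% of all), 0 in shHMGB1 alone (1.73% of all) and 16 in neither (37.2%, beside 40.5% of all). By family, shCTRL and shHMGB1 had end summits at 5 and 5 of 9 Pax genes, 5 and 4 of 8 Lhx genes, 7 and 2 of 14 Nkx genes, 6 and 4 of 6 Dlx genes, and 4 and 3 of 6 Six-family genes. The Nkx genes thus account for 5 of the 9 genes listed in shCTRL alone.

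**Figure D1:**
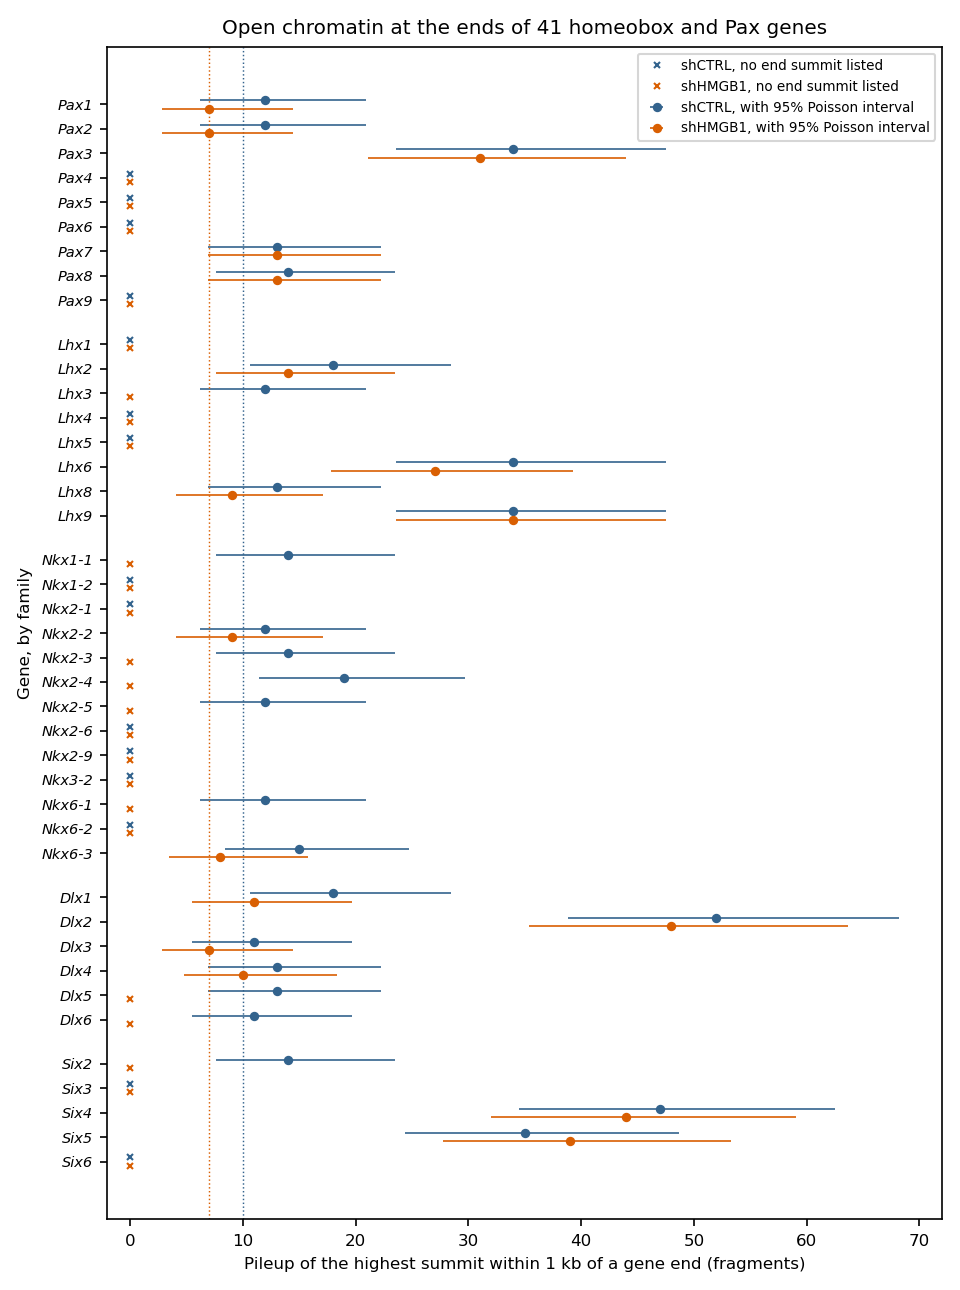
Pileup of the highest summit within 1 kb of either end of 41 of the 43 genes (horizontal axis, fragments), with 95% Poisson intervals, shCTRL in blue and shHMGB1 in orange. Crosses at 0 are genes with no end summit listed, dotted lines are the lowest pileups listed (10 and 7), and 6 of the genes drawn stand at 34 to 52 in shCTRL while the other 20 with a summit lie at 11 to 19.

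The open ends were weak. The median pileup of the highest end summit was 14 in shCTRL and 13 in shHMGB1, against 39 and 35 over all coding genes with an end summit. A pileup of at least 30 was reached by 7 and 6 genes, or 16.3% and 14.0%, against 36.2% and 31.0% of all coding genes. Where only summits with −log10 q of 10 or more were counted, 7 of the 43 genes were open in shCTRL and the same 7 in shHMGB1 (16.3% in each, beside 43.5% and 42% of all coding genes). The peaks were narrow as well. The 45 end peaks of these genes in shCTRL had a median width of 172 bp and the 23 in shHMGB1 one of 235 bp, against 352 and 398 bp over all end peaks, and 73.3% and 65.2% held a single summit, against 45.8% and 45.0% of all. No end summit was shared between any of the 43 genes.

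Of the Six-family genes, which act with Eya coactivators in precursors of muscle, kidney, ear and eye, Six4 and Six5 were among the most open. The pileup at Six4 (chr12:73099609-73114031) was 47 (34.5 to 62.5) in shCTRL and 44 (31.97 to 59.1) in shHMGB1, at 43 and 74 bp before its listed start, inside the Six4 window printed above, which holds a CCAAT and a GC box match. Six5 (chr7:19094544-19098549), a gene next to Dmpk, had 35 (24.4 to 48.7) and 39 (27.7 to 53.3), and these summits lie within 1 kb of the end of Dmpk too, so they cannot be assigned to either gene. The highest Six5 summits were different sites, 337 bp before the listed start in shCTRL and 592 bp before it in shHMGB1. The intervals of the libraries overlapped for both genes, but at Six5 they belong to these different sites. Six2, a factor of kidney progenitors, had 14 (7.65 to 23.5) in shCTRL and no end summit in shHMGB1, and Six3 and Six6, factors of forebrain and eye, had none in either.

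Among 6 partners of the Six-family proteins, fixed as a list, 3 were open at an end in shCTRL and 2 in shHMGB1 (50% and 33.3%, beside 57.8% and 53.7% of all coding genes). Eya3 had 39 and 41 fragments, Eya1 15 and 8, and Eya2 16 in shCTRL with none listed in shHMGB1. Eya4, Dach1 and Dach2 had no end summit and no peak within 20 kb in either library.

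Of the Dlx genes, which pattern forebrain interneurons, jaw and limb, Dlx2 (chr2:71543408-71546754) had the highest end pileup of all 43 genes. It reached 52 (38.8 to 68.2) in shCTRL and 48 (35.4 to 63.6) in shHMGB1, with deposited folds of 13.97 and 18.25, 217 and 226 bp beyond the downstream end of the gene and 3563 and 3572 bp from the listed start. Near the start, the highest summit had 28 (18.6 to 40.5) in shCTRL, inside the Dlx2 window printed above, and 21 (13.0 to 32.1) in shHMGB1, 251 bp after the start. Dlx2 thus carried open chromatin at both ends, with 12 end summits in shCTRL and 10 in shHMGB1. Dlx1, its neighbour, had 18 and 11 at an end, Dlx4 had 13 and 10, and Dlx3, a factor of skin and tooth, 11 and 7. The Dlx3 summits were different sites, 167 bp beyond an end in shCTRL and 553 bp beyond it in shHMGB1. Dlx5 and Dlx6, a linked pair that patterns the lower jaw, had 13 (6.92 to 22.2) and 11 (5.49 to 19.7) in shCTRL and no end summit in shHMGB1.

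Of the Lhx genes, Lhx6 and Lhx9 stood above the others. Lhx6 (chr2:36081950-36105992), a factor of cortical interneurons, had 34 (23.5 to 47.5) in shCTRL and 27 (17.8 to 39.3) in shHMGB1, 177 and 154 bp before a listed start, inside the Lhx6 window printed above. Lhx9 (chr1:138825186-138848839), needed for gonads to form, had 34 (23.5 to 47.5) in each library. Lhx2, a factor of eye, limb and hair follicle, had 18 and 14, and Lhx8, a factor of cholinergic neurons and oocytes, had 13 and 9, all at the downstream end. Lhx3, a pituitary and motor neuron factor, had 12 (6.20 to 21.0) in shCTRL alone, also at the downstream end and 5473 bp from the nearest listed start. Lhx1, Lhx4 and Lhx5 had no end summit. Of 10 other LIM-homeodomain and LIM partner genes, 3 were open at an end in shCTRL, 4 in shHMGB1 and 2 in both (30%, 40% and 20%, beside 57.8%, 53.7% and 52% of all coding genes). Lmo4 had 169 and 176 fragments, Lmo1 15 and 13, Lmx1b 11 in shCTRL alone, and Lmo2 and Lmx1a 11 and 9 in shHMGB1 alone. Isl1, Isl2, Ldb1, Ldb2 and Lmo3 had no end summit.

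Of the Pax genes, only Pax3 passed 30 fragments at an end. Pax3 (chr1:78101267-78197136), a factor of neural crest and muscle precursors, had 34 (23.5 to 47.5) in shCTRL and 31 (21.1 to 44.0) in shHMGB1. Pax8, a thyroid and kidney factor, had 14 and 13, Pax7, a factor of muscle stem cells, 13 and 13, Pax2, a kidney and eye factor, 12 and 7, and Pax1, a factor of the developing spine, 12 and 7. The Pax7 summits were different sites, 267 bp after the listed start in shCTRL and 377 bp before it in shHMGB1. The highest Pax2 summits differed too, at 304 bp after a listed start in shCTRL and 10 bp before it in shHMGB1. Unlike Pax7, Pax2 also had a lower shCTRL summit near the shHMGB1 one, with 10 fragments at 47 bp after that start. That summit forms the matched Pax2 pair used below. The Pax8 summits lay closest to the 1 kb limit, at 993 and 970 bp from the downstream end. Pax4 and Pax6, which act in pancreatic islets and, for Pax6, the eye, the B-cell factor Pax5, and Pax9 had none. Just outside the limit lay Pax9 (1117 bp in shCTRL), Pax4 (1295 bp in shHMGB1), Nkx1-2 (1417 bp in shCTRL) and Nkx2-4 (1016 bp in shHMGB1).

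Of the 14 Nkx genes, none had an end pileup above 19. Nkx2-2, a factor of the ventral neural tube and islets, had 12 (6.20 to 21.0) and 9 (4.12 to 17.1), and Nkx6-3, a factor of the stomach, 15 (8.40 to 24.7) and 8 (3.45 to 15.8). The Nkx6-3 summits were different sites, 821 bp inside the higher-numbered end in shCTRL and 239 bp beyond it in shHMGB1. The 5 open in shCTRL alone were Nkx2-4 with 19 (11.4 to 29.7), Nkx1-1 and the spleen and gut factor Nkx2-3 with 14 (7.65 to 23.5) each, and the heart factor Nkx2-5 and the beta-cell factor Nkx6-1 with 12 (6.20 to 21.0) each. The Nkx2-5 summit lay at the downstream end, 2226 bp from the listed start. The other 7 had no end summit in either library, among them Nkx1-2, Nkx2-1, which directs thyroid and lung, Nkx2-6, Nkx2-9, the cartilage factor Nkx3-2, and Nkx6-2.

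All 9 genes open in shCTRL alone had 11 to 19 fragments, and none had a shHMGB1 peak overlapping the shCTRL peak. The median summit of the whole shCTRL list had 17 fragments. Nkx2-4, at 19, lay above that median, and the others, at 11 to 14, lay below it. For the same fold over expected, shHMGB1 would have needed 7.49 fragments at Dlx6, the lowest of the 9, and 13.2 at Nkx2-4, the highest, against its lowest listed pileup of 7. Over all coding genes with a highest end pileup of 10 to 19 in shCTRL, 45.2% had no end summit in shHMGB1. Among the 20 of these genes in that range it was 9, or 45.0%, close to that share. The families differed: it was 5 of 7 Nkx genes, 2 of 5 Dlx genes, 1 of 3 Lhx genes, 1 of 1 Six-family gene and 0 of 4 Pax genes. Why these ends were not listed in shHMGB1 was not tested. Counting only summits with −log10 q of 5 or more, 2 genes were open in shCTRL alone (beside 3.02% of all coding genes) and 2 in shHMGB1 alone (beside 1.58%), and with 10 or more it was 0 in shCTRL alone (beside 3.13%).

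The peaks in the 1 Mb around these 9 genes also differed between the libraries, in both directions. There were 294 in shCTRL and 168 in shHMGB1 around Nkx2-5, 123 and 81 around Lhx3, 101 and 45 around Nkx2-4, 73 and 68 around Nkx2-3, 49 and 39 around Nkx1-1, and 14 and 12 around Nkx6-1. Around Six2 there were 38 and 47, and around Dlx5 and Dlx6, 20 and 23. The part of these regional numbers in the end summits was not tested.

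Summits present at matching places in both libraries were compared next. Pairs within 150 bp were found for 15 of the 18 genes open in both libraries, and not for Pax7, Nkx6-3 and Dlx3. The ratio of pileups, shHMGB1 over shCTRL, was taken relative to the median coding gene, with a conditional binomial 95% interval. The median log2 ratio of the 15 was −0.12 (0 over all coding genes by construction), and the range ran from −0.57 at Pax1 to 0.74 at Six5. The sign of that median turned when each gene was set against genes of the same height decile (0.097), and it was 0.0047 with pairs matched within 50 bp. Of the 15 intervals, 0 lay above 0 and 0 below it, beside 6.05% and 2.29% of all coding genes with a matched pair. Past 1.5-fold above the median gene lay 1 of 15, Six5, beside 4.03% of all 11134 coding genes with a matched pair, and 0 lay past 1.5-fold below it, beside 8.81% of all. The Six5 pair was 27 against 39 fragments (log2 ratio 0.74, interval −0.0028 to 1.51). With the highest end summit of each library in place of the matched pair it was 0.38, and it is the pair shared with Dmpk. For each gene only the pair with the highest summed pileup was used. Other Six5 summits at matching places went the other way, among them 35 in shCTRL against 24 in shHMGB1, and 21 against 11. The Six5 ratio thus holds for that pair and not for the whole gene end. The most open genes lay close to the median gene, with log2 ratios of 0.10 (−0.50 to 0.69) at Dlx2, 0.12 (−0.51 to 0.74) at Six4, 0.08 (−0.67 to 0.82) at Pax3, −0.12 (−0.91 to 0.65) at Lhx6 and 0.21 (−0.52 to 0.94) at Lhx9. Each of these intervals reaches from −0.50 or lower to 0.65 or higher, so a change within that span was not detectable at this depth.

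**Figure D2:**
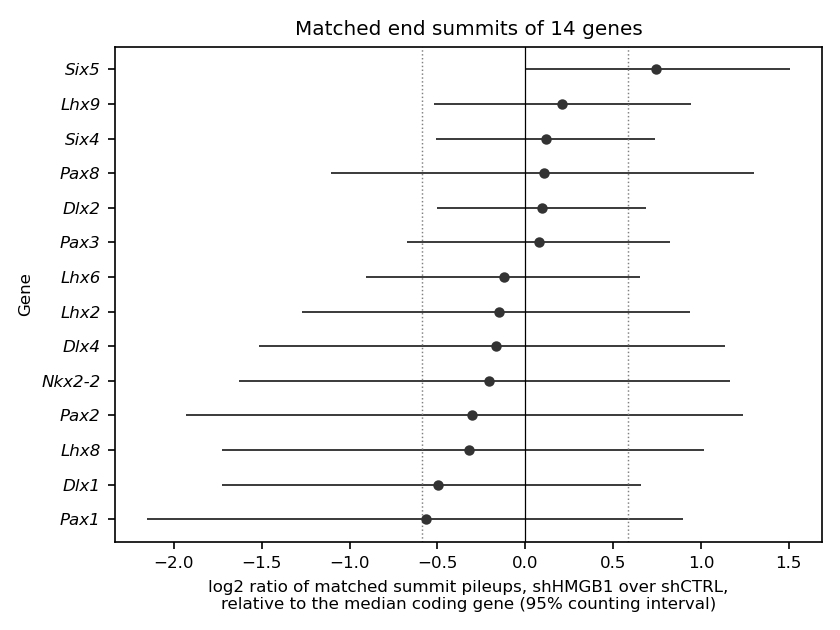
log2 ratio of matched summit pileups at gene ends, shHMGB1 over shCTRL and relative to the median coding gene (horizontal axis), for 14 of the 15 genes, with 95% counting intervals. Dotted lines mark 1.5-fold, and Six5 at 0.74 is the only gene past them.

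Of the 20 genes open at an end in shCTRL whose strand is known, 6 had their highest end summit at the downstream end. In shHMGB1 it was 4 of 13. The share over all coding genes was not computed, so these counts describe the listed summits only. An annotated end can lie far from the promoter in use, so summits were also taken within 1 kb of the listed start sites of 32 genes that the promoter table holds. By this rule 18 were open in shCTRL and 11 in shHMGB1 (56.2% and 34.4%, beside 58.4% and 54.4% of 17486 coding genes). Of these, 11 were open in both (beside 53.1%), 7 in shCTRL alone (21.9%, beside 5.24%) and 14 in neither (43.8%, beside 40.4%). The gene that stood out was Pax9 (chr12:56691693-56712824), a factor of the pharyngeal pouches and teeth that the end rule had counted as closed. Its highest summit had 155 fragments (131.6 to 181.4) in shCTRL and 115 (94.9 to 138.0) in shHMGB1, 87 and 91 bp after the listed start of the Pax9 window printed above, and 3865 and 3869 bp from the annotated end. The peaks were 917 and 910 bp wide with 4 summits each. Set against the median gene, the log2 ratio was −0.22 (−0.58 to 0.13).

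Other genes also gained by this view. Dlx1 had 62 (47.5 to 79.5) in shCTRL and 49 (36.3 to 64.8) in shHMGB1, 294 and 304 bp after its listed start, against 18 and 11 at the annotated end. Lhx4, a pituitary factor closed by the end rule, had 23 (14.6 to 34.5) and 16 (9.15 to 26.0) at 824 and 856 bp. Lhx9 had a further pair of 27 (17.8 to 39.3) and 34 (23.5 to 47.5) just before its listed start, with a log2 ratio of 0.54 (−0.23 to 1.32). Ratios were available at the starts of 10 genes, and none of their intervals excluded 0.

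**Figure D3:**
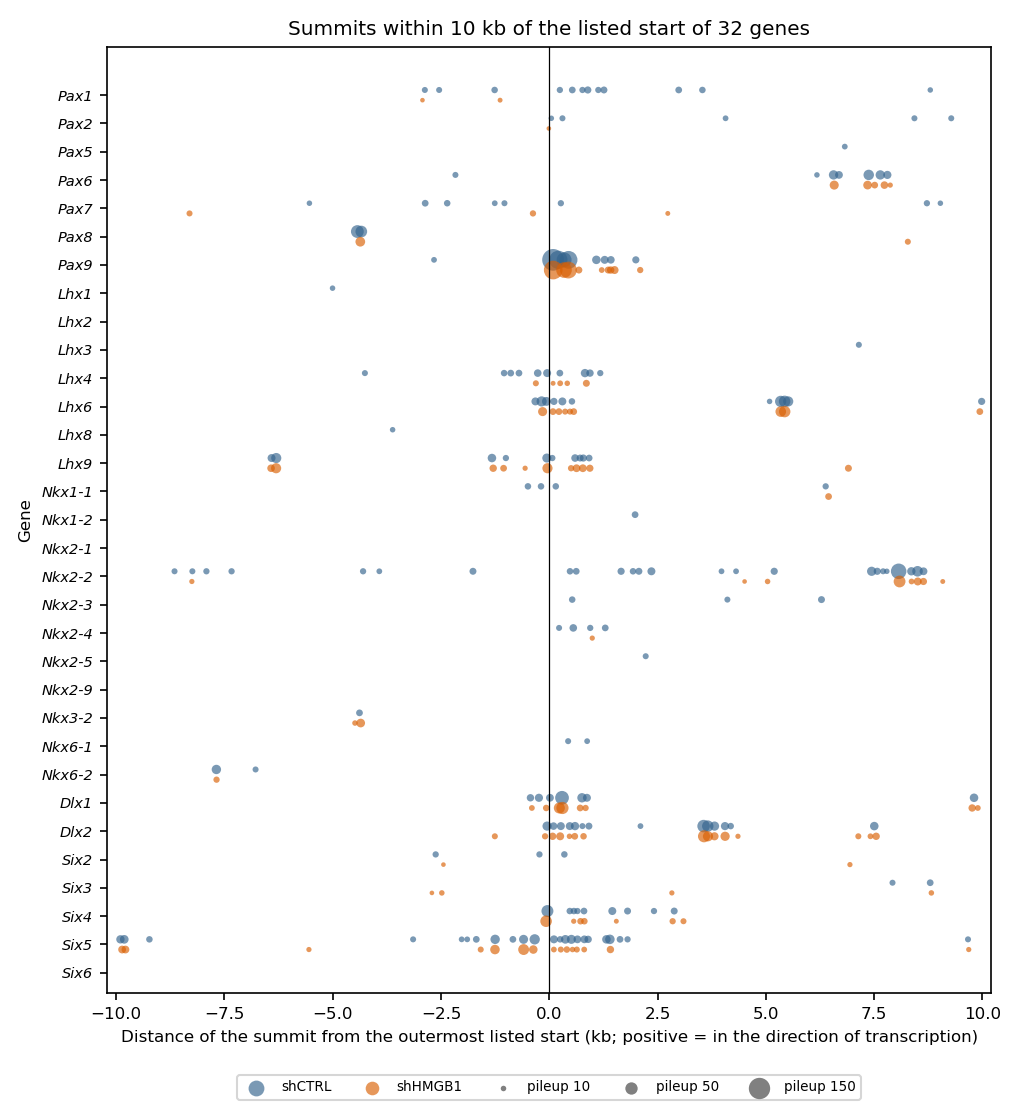
Position of every summit within 10 kb of the outermost listed start of 32 genes (horizontal axis, kb, positive in the direction of transcription), shCTRL in blue above shHMGB1 in orange, with the area of a dot growing with pileup. The dots at the start of Pax9, at 155 and 115 fragments, stand out, and those at Lhx1, Nkx2-1, Nkx2-9 and Six6 are few or absent.

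Nucleosome-free regions, intervals deposited separately and read from their layout as low in nucleosome occupancy, were rare at these ends. They lay within 1 kb of an end at 4 genes in shCTRL and 1 in shHMGB1, against 28.2% and 25.4% of all coding genes. In shCTRL they were 108 bp at Dlx2, 174 and 143 bp at Lhx6, 406 and 164 bp at Six4, and 196 and 159 bp at Six5. In shHMGB1 there was 1 of 178 bp at Lhx6, which overlapped the 143 bp region of shCTRL. The mean occupancy over these 8 regions was between 0.0249 and 0.0898. At listed starts Pax9 had 3 regions in shCTRL and 1 in shHMGB1, Lhx4 had 2 in shCTRL and 0 in shHMGB1, and Dlx1 had 1 in each, of 269 and 223 bp.

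The promoters of these genes were rich in CpG yet mostly not under a peak. The 40 windows of 250 bases before the starts of the 32 genes had a median GC content of 61.8% against 55.6% over 21255 windows of 17486 coding genes, and a median of 15 CpG, from 4 to 33, against 10. GGGCGG occurred in 62.5% of the windows against 42.6% of all, CCAAT in 37.5% against 35.4%, TATAAA in 2.5% against 11.6%, and TAATTA in 0 of 40 against 4.31%. A peak lay over 13 of the 40 windows in shCTRL and 10 in shHMGB1 (32.5% and 25%, beside 50.7% and 48.4% of all windows).

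Windows were then split at the median of 15 CpG, a split chosen after these values had been seen. Among windows with at least 15 CpG, 84.8% of 7793 over all coding genes were under a peak in shCTRL and 80.9% in shHMGB1. For the families it was 7 of 21 (33.3%, interval 14.6 to 57.0) and 3 of 21 (14.3%, 3.0 to 36.3). Among windows with fewer CpG it was 6 and 7 of 19 (31.6% and 36.8%) for the families and 30.9% and 29.5% of 13462 for all. The windows are not independent, since some genes have several. The CpG-rich windows under a peak were those of Dlx1, Dlx2 and Six4 in both libraries, and in shCTRL alone a window each of Lhx6, Nkx1-1, Pax2 and Six2. The printed windows span this range: Pax9, the most open, has 7 CpG and a GC content of 43.6%, while Nkx1-1 has 30 and 75.2%, and Six6 has 17 and 62.8%.

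**Figure D4:**
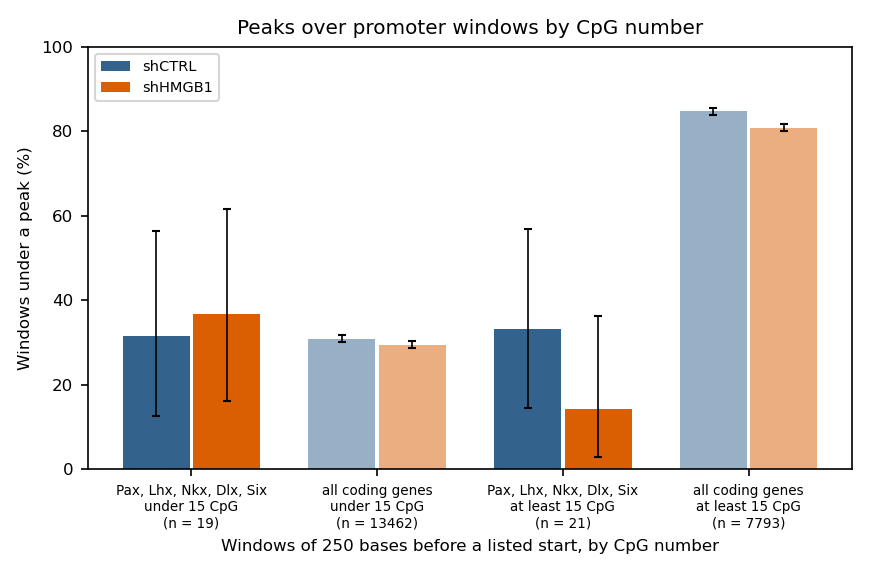
Share of 250-base windows before listed starts that were under a peak (vertical axis, %), split at 15 CpG, for the families (dark bars) and all coding genes (pale bars), with 95% Clopper-Pearson intervals. At 15 or more CpG, 33.3% and 14.3% of the family windows were under a peak against 84.8% and 80.9% of all.

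Around the genes, peaks were more numerous in shCTRL. Within 20 kb of an end there were 4 peaks per gene in shCTRL and 3 in shHMGB1 at the median (3 and 3 over all coding genes), from 0 to 44 and from 0 to 20. The totals were 260 and 175, and 216 and 155 without Pax7, an alternative added after the data were seen. More peaks were listed in shCTRL at 27 genes (62.8%, beside 34.6% of all coding genes), more in shHMGB1 at 7 (beside 27.4%) and equal numbers at 9. Counting only peaks with −log10 q of 10 or more, the totals were 53 and 51, so the excess lay in weak peaks. Of the peaks near these genes, 45.3% of the 247 distinct peaks in shCTRL overlapped a shHMGB1 peak, against 60.1% of all shCTRL peaks, and 65.5% of the 165 in shHMGB1 overlapped a shCTRL peak, against 69.0%. The peaks without a counterpart had median pileups of 12 and 9, and those with one 18 and 15.

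Pax7 had the most peaks, 44 in shCTRL and 20 in shHMGB1, in a region with 665 and 224 peaks per 1 Mb, where the median of the 43 genes was 46 and 47. Nkx2-2 followed with 20 and 8, in a region with 91 and 39. Six5 had 15 and 12, Pax8 11 and 13, Nkx6-3 11 and 7, Dlx4 11 and 8, and Six3 went the other way with 5 and 12. No peak lay within 20 kb in either library at 6 genes, among them Lhx5, Nkx2-1, Nkx2-6, Nkx2-9 and Six6 (14.0%, beside 19.5% of all coding genes), and Lhx3, Nkx2-5 and Nkx6-1 had 2 each in shCTRL and 0 in shHMGB1.

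**Figure D5:**
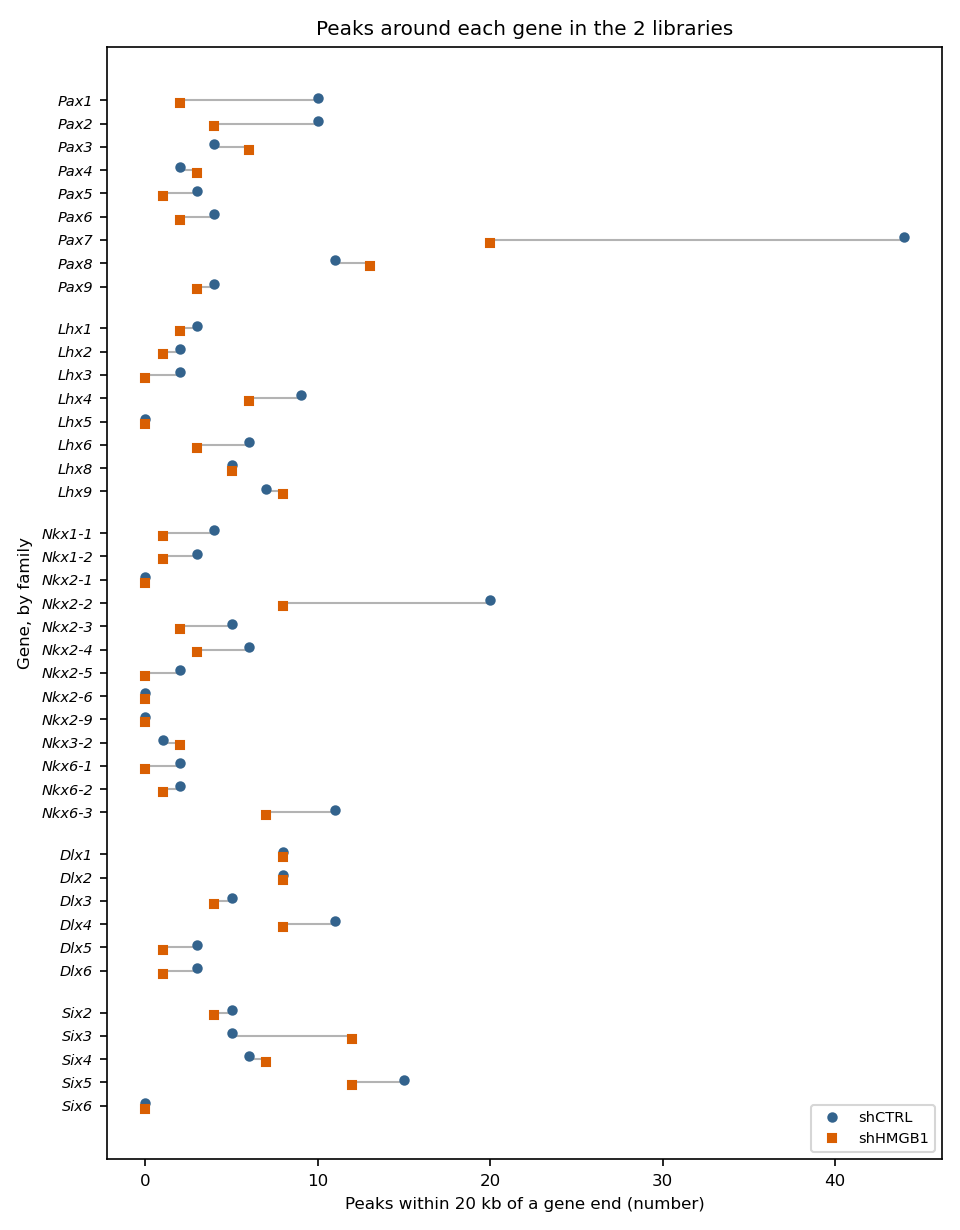
Number of peaks within 20 kb of an end of 41 of the 43 genes (horizontal axis) in shCTRL (blue circles) and shHMGB1 (orange squares), joined by a line. Pax7 has 44 and 20 peaks and Nkx2-2 has 20 and 8, and 5 of the genes drawn have none in either library.

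Some genes had strong peaks farther off, both genes with weak or closed ends and, in Lhx6 and Lhx9, genes with open ends. Inside Nkx2-2, 1851 bp from its end, a summit had 79 fragments (62.5 to 98.5) in shCTRL and 46 (33.7 to 61.4) in shHMGB1. Six3 had none at its ends but had a summit 17165 bp away, outside the gene, with 105 in shCTRL and 113 in shHMGB1. Pax6 had 36 (25.2 to 49.8) inside the gene in shCTRL with a counterpart of 25. Lhx6 had a further pair of 44 and 43 inside the gene, 6017 and 6019 bp from an end. The strongest peaks near Lhx9 (101 and 94) lay 5 and 6 bp from the end of another coding gene, 2310009B15Rik.

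Several of the genes are linked in clusters. Of the 43 genes, 19 lay within 250 kb of another, in 11 neighbouring pairs. By the end rule 8 of the 11 pairs had the same state in the libraries (open in both, in shCTRL alone or in neither). The share over neighbouring pairs of all coding genes was not computed, so the 8 cannot be called many or few. Among the 8 are Nkx2-9 and Pax9, both closed by the end rule although Pax9 was open at its listed start. On chromosome 12, Six6 had no peak within 20 kb, while Six4, farther along, was among the most open genes. Also on chromosome 12, Nkx2-1 and Nkx2-9 had no peak within 20 kb, and Pax9, 78.1 kb beyond Nkx2-9, had the highest start summit of all. On chromosome 2, Dlx1 and Dlx2, 9.4 kb apart, were both open. On chromosome 6, Dlx6 and Dlx5, 9.8 kb apart, both had weak summits in shCTRL alone.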

How the data were processed

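The submitters' processing notes name Trimmomatic 0.32, BWA 0.7.5-r404, SAMtools, bedtools, MACS2 and the build mm10 (GRCm38). How they were set, filters on reads, a Tn5 shift and the caller of nucleosome-free regions are not given in the sources used here. For each library the authors deposited 1 narrow peak list, with a score, a fold (ratio of summit pileup to expected pileup), −log10 p and −log10 q. The deposited nucleosome-free regions were read, from their layout, as holding fractions of occupancy and signal densities of insertions.

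Pileups were recovered as fold × (expected + 1) − 1 with 1 expected pileup per library, and came out whole within 0.001. Identical intervals were merged for peak numbers, on chromosomes 1 to 19, X and Y. The gene table gives ends without exons, so both ends were used, and starts came from the promoter table. Of the 43 genes, 32 matched it; 8 of its windows with other letters were left out. Some genes are counted but not reported here singly. Members, lists and rules were chosen with earlier results of these data known. Named with full values were genes open in 1 library, the 8 highest folds per library, the 5 with most peaks within 20 kb, those with a nucleosome-free region and those past 1.5-fold; other genes were named after their values were seen. Alternatives varied window, q threshold, match distance and scaling. The scripts, tested on simulated data, used Python 3.11.15, NumPy 2.4.6, pandas 2.3.3, SciPy 1.17.1 and matplotlib 3.10.9.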

Additional observations from a re-analysis of the deposited data

How the results depend on the processing

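No paired analysis was possible because each condition had 1 library and the labels carry no replicate numbers. Counts of genes with an end summit moved with the window and the threshold. Within 500 bp of an end, 16 genes were open in shCTRL, 11 in shHMGB1, 10 in both and 1 in shHMGB1 alone (53.2%, 49.4%, 47.9% and 1.46% of all coding genes). Within 2 kb, 2 were open in shHMGB1 alone (2.06% of all), and with the whole gene and 1 kb around it, 1 was (1.96%). At a −log10 q of at least 5, 10 were open in shCTRL, 10 in shHMGB1, 8 in both, 2 in shCTRL alone and 2 in shHMGB1 alone (49.4%, 48%, 46.4%, 3.02% and 1.58% of all). At 10 or more it was 7, 7 and 7 in both, with 0 in shCTRL alone (43.5%, 42%, 40.4% and 3.13%). At listed starts, 11 of 32 were open in shHMGB1 and 11 in both (54.4% and 53.1%). The median number of peaks per gene was 8.0 in shCTRL and 6.0 in shHMGB1 within 50 kb, 2.0 and 1.0 at a −log10 q of at least 5, and 1.0 and 1.0 at 10. Within 2 kb, 3 genes had a nucleosome-free region in shHMGB1, where shCTRL had 6, a value within the limits set. The share of all coding genes with such a region was not computed at 2 kb. The median log2 ratio was 0.18 with deposited folds and no centring, where scaling alone shifts every gene. For the other moves the cause was not tested. The 39 other planned values and the 6 added ones stayed within the limits set. These were 1.5-fold for counts, and −0.30 to 0.10 for the median log2 ratio. No gene's ratio left its own counting interval in 94 recomputed values. Those intervals are wide, from −2.15 to 0.90 at Pax1, so only large moves could have left them. Dlx2 went from 0.10 to −0.43 at its listed start and stayed inside. A single library per condition, and listing limits of 10 and 7 fragments, bound every comparison of weak ends.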

Other observations

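Cofactors and other developmental homeobox genes, taken as lists, differed in how often they were open. All 7 TALE genes, whose products bind DNA together with other homeodomain proteins, had an end summit in both libraries (52% of all coding genes did). Meis1 had 92 fragments in shCTRL and 78 in shHMGB1, and Meis2 57 and 40. The matched summits of the 7 TALE genes had a median log2 ratio of −0.30. Past 1.5-fold below the median gene lay 1 of the 7, beside 8.81% of all coding genes with a matched pair.

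Of 21 other homeobox genes, 10 were open at an end in shCTRL, 7 in shHMGB1 and 7 in both, and 3 were open in shCTRL alone. These are 47.6%, 33.3%, 33.3% and 14.3%, beside 57.8%, 53.7%, 52% and 5.79% of all coding genes. Otx1, a forebrain factor, had 95 and 69 fragments, Irx3 58 and 59, and Irx5 51 and 48. Of 4 Groucho corepressors, which Six-family, Nkx and Pax proteins can recruit, 3 were open in shCTRL and 2 in shHMGB1 (75% and 50%, beside 57.8% and 53.7% of all coding genes). Tle1 had 273 and 266 fragments, Tle3 27 and 34, and Tle4 14 in shCTRL with none listed in shHMGB1.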
